A study of Mus musculus with 16 samples.

Results

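A set of 10 regulators of programmed cell death were followed through 4 groups of mouse bone-marrow-derived macrophages, and the levels of 9 of them are described here. The genes were named as Bcl2, Bcl2l1, Bcl2l11, Mcl1, Bax, Bak1, Bid, Birc2, Birc3 and Cflar, and each was read from the probe set whose annotated symbol matched, taking the brightest over all 16 arrays where a gene had several. No probe set carried the symbol Bax alone in the annotation used, so Bax was not analysed here. The 9 measured genes stand among 19937 genes on the array.

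The cells were NFAT5 knockout (KO) macrophages given LPS, wild-type macrophages given LPS, unstimulated KO macrophages and unstimulated wild-type macrophages, all of the 129sv background, with 4 Affymetrix arrays in each group. LPS comes from the envelope of Gram-negative bacteria and activates macrophages through Toll-like receptors, and the transcription factor NFAT5 is known from the cellular response to high salt. The labels state neither the dose and duration of LPS nor how and in which cells the Nfat5 allele was altered. They also name no animals or cultures, so p-values measure only how far these arrays spread, and that spread may be technical to an unknown degree.

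BCL2 family proteins decide whether the outer membrane of the mitochondrion is opened, the step that commits a cell to intrinsic apoptosis. Guardians such as BCL2, BCL-XL (from Bcl2l1) and MCL1 hold back the pore formers BAX and BAK (from Bak1), and BH3-only proteins such as BIM (from Bcl2l11) and BID free or activate the pore formers. At death receptors the cellular IAP proteins (from Birc2 and Birc3) attach ubiquitin to signalling proteins, and cFLIP (from Cflar), a relative of caspase-8 without protease activity, limits the activation of that caspase. In macrophages, Toll-like receptor signals are known to switch on survival genes through NF-kB, which lets the cells live through an inflammatory response.

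All values are log2 levels from robust multi-array average (RMA), which can be compared between groups for 1 gene but not between genes. RMA draws changes of dim genes towards 0. In every group 9 of 9 macrophage markers averaged above a log2 level of 8, Mrc1 only just, at 8.01, in wild-type cells with LPS. T cell, B cell, neutrophil and dendritic cell lists held 0 markers that averaged above 8. This check of cell identity is rough, since 1 cutoff was applied to different genes. Only Tfrc of 3 erythroid markers and, in 3 of the 4 groups, Col1a1 of 5 stromal markers exceeded 8. As in any bulk sample, fewer cells of a type and less RNA per cell cannot be told apart. Nfat5 averaged 9.09 ± 0.29 in KO cells with LPS and 10.07 ± 0.34 in wild-type cells with LPS (SD, n = 4 each), and 9.04 ± 0.12 in unstimulated KO cells and 9.39 ± 0.21 in unstimulated wild-type cells. The KO arrays numbered 1 to 3 had Kdm5d, a Y-linked gene, above Xist, which comes from the inactive X of female cells. The KO arrays numbered 4 and all wild-type arrays had Xist above Kdm5d, so sex and genotype largely go together. The arrays of each KO group thus do not all come from the same animal, while for the wild-type arrays this is unknown.

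LPS changed 3 of the 9 genes in KO macrophages and 7 in wild-type macrophages. Over the alternative settings 3 to 6 genes were called in KO cells and 5 to 8 in wild-type cells, so the gap between these counts depends on the setting. Birc2, Birc3 and Cflar rose in both genotypes, and in wild-type cells Bcl2l1 also rose while Bcl2, Bcl2l11 and Mcl1 fell. A gene was called where its Benjamini-Hochberg adjusted p over all genes in limma was under 0.05, which held for 24.7% of all genes in KO cells and 30.8% in wild-type cells. In KO cells 3 rose and 0 fell, against 12% and 12.7% of all genes. In wild-type cells 4 rose and 3 fell, against 14% and 16.8% of all genes. Arrays with and without LPS did not overlap for 4 genes in KO cells, where 24.8% of all genes did not, and for 7 genes in wild-type cells, where 32.3% did not. The median log2 change of the 9 genes was 0.02 in KO cells and 0.32 in wild-type cells, beside 0.01 and 0.06 over all genes. These medians are the values of Bcl2l1 in KO cells and Bak1 in wild-type cells, neither of them called, and do not show a shift of the whole set. The difference in response between the genotypes was called for 1 of the 9 genes, Bcl2l11, against 1.29% of all genes. It was higher in KO cells, as were 0.988% of all genes, and 0 members were lower, against 0.301%.

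**Figure D1:**
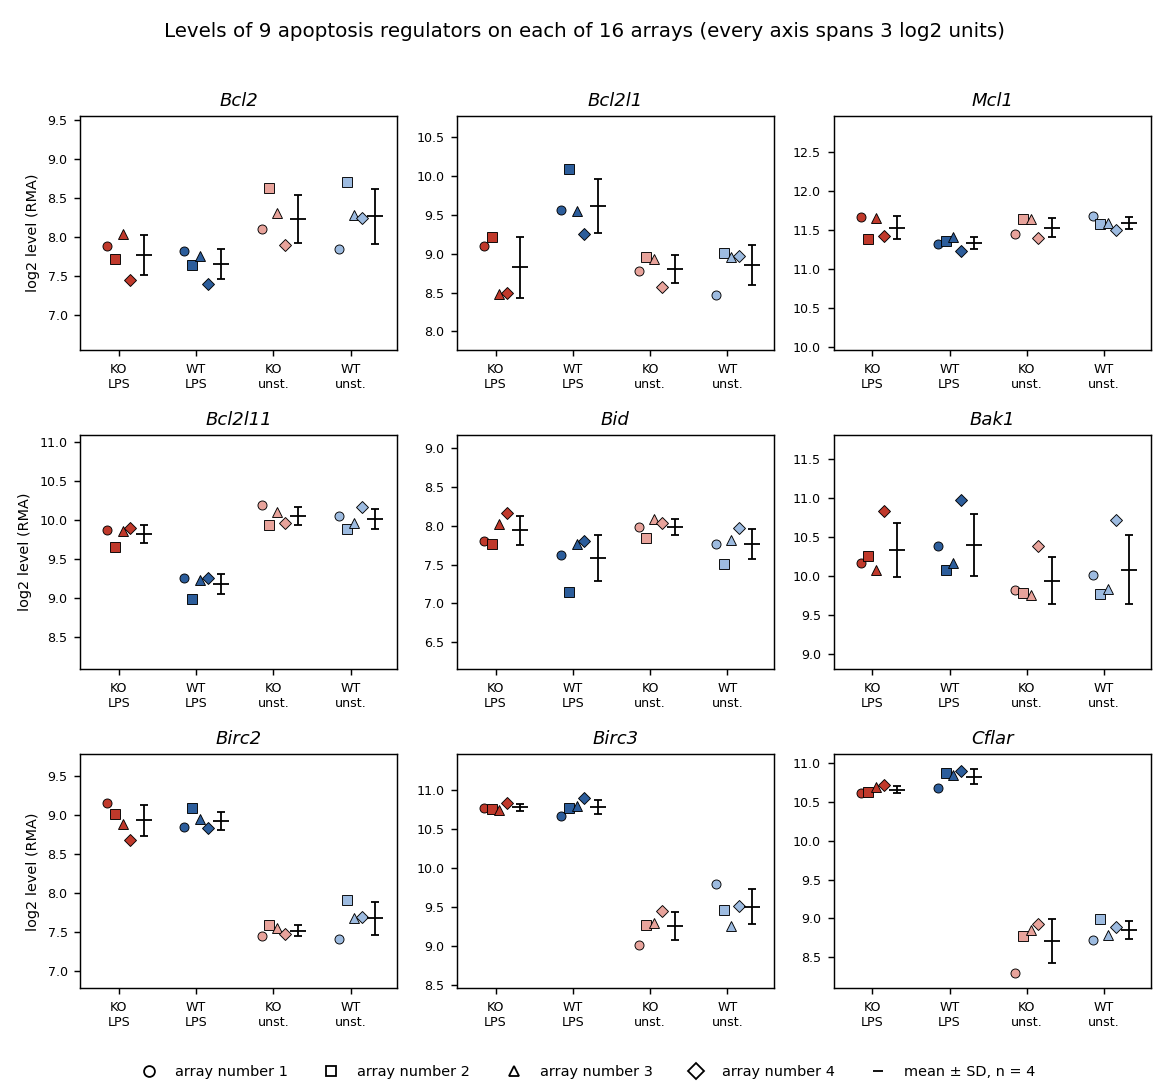
Log2 RMA levels (y axis, each panel spanning 3 units) of 9 genes in 4 groups (x axis), with 1 symbol per array by its number and a bar for mean ± SD (n = 4). Birc2, Birc3 and Cflar are separated by LPS in both genotypes. In wild-type cells with LPS, Bcl2l11 stands apart and Bcl2l1 lies above the other groups by a narrow margin (9.26 against 9.22).

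Cflar, which restrains caspase-8, showed the largest change of the 9 genes in both genotypes. With LPS it lay at 10.61, 10.62, 10.68 and 10.71 in KO cells (arrays 1 to 4) and at 10.68, 10.86, 10.84 and 10.89 in wild-type cells. Without LPS it lay at 8.30, 8.78, 8.85 and 8.93 in KO cells and at 8.73, 8.99, 8.78 and 8.89 in wild-type cells. Every array with LPS exceeded every array without it by more than 1 log2 unit. The rise was 3.85-fold in KO cells (1.94 ± 0.114 on the log2 scale, SE; limma adjusted p = 3.81e-10) and 3.92-fold in wild-type cells (1.97 ± 0.114; adjusted p = 2.08e-10). The KO response minus the wild-type response was -0.03 (95% confidence interval -0.37 to 0.31). Cflar had 2 further probe sets, and these gave log2 rises of 2.61 and 2.32 in KO cells and of 2.19 or more in wild-type cells.

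The cellular IAP genes, neighbours on chromosome 9 with 0 annotated genes between them, also rose in both genotypes. With LPS, Birc3 lay at 10.77, 10.76, 10.75 and 10.84 in KO cells and at 10.67, 10.77, 10.79 and 10.90 in wild-type cells. Unstimulated, it lay at 9.02, 9.27, 9.29 and 9.45 in KO cells and at 9.80, 9.46, 9.25 and 9.51 in wild-type cells. The LPS groups of both genotypes covered the same narrow band, with no overlap with the unstimulated groups. Birc3 rose 2.87-fold in KO cells (1.52 ± 0.11; limma adjusted p = 5.08e-09) and 2.43-fold in wild-type cells (1.28 ± 0.11; adjusted p = 3.48e-08).

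Birc2 with LPS lay at 9.15, 9.02, 8.89 and 8.68 in KO cells and at 8.85, 9.09, 8.95 and 8.83 in wild-type cells. Without LPS it lay at 7.45, 7.59, 7.55 and 7.47 in KO cells and at 7.41, 7.92, 7.68 and 7.70 in wild-type cells. Again the LPS arrays all lay above the unstimulated ones in both genotypes. Birc2 rose 2.67-fold in KO cells (1.42 ± 0.114; limma adjusted p = 1.95e-08) and 2.38-fold in wild-type cells (1.25 ± 0.114; adjusted p = 6.94e-08). Its dimmer second probe set gave log2 rises of 0.62 in KO cells and 0.65 in wild-type cells, smaller than the 1.42 and 1.25 of the brighter one. The KO response minus the wild-type response was 0.24 (interval -0.08 to 0.57) for Birc3 and 0.16 (-0.17 to 0.50) for Birc2, and neither was called (adjusted p = 0.685 and 0.831).

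The promoter windows of Birc3 and Cflar are shown because these genes moved together with LPS in both genotypes, and 1 of 3 windows of Bcl2l1, chosen after the search because it alone of the 14 windows held an NF-kB match. Each holds the 250 bases before a RefSeq start site in GRCm38.p6, read 5′ to 3′ on the gene's strand, and capitals mark a match to the NF-kB consensus.
Birc3, chr9:7873171-7873420, minus strand: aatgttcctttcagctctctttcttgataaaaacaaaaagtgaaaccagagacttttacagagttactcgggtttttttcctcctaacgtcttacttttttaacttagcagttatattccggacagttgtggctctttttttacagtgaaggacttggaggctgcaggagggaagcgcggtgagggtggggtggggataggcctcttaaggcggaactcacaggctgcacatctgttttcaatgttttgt
Cflar, chr1:58711241-58711490, plus strand: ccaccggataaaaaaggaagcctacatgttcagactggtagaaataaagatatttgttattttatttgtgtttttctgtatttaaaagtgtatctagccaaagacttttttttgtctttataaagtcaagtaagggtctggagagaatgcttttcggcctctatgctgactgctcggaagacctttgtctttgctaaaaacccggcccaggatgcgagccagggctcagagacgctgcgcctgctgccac
Bcl2l1, chr2:152830718-152830967, minus strand: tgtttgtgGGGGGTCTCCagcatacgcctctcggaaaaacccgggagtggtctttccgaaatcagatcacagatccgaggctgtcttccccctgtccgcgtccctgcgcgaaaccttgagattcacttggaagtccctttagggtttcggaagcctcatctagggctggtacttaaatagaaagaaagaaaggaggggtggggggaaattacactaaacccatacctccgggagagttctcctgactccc
Of 14 such windows for the 10 named genes, 1 held the 10-base NF-kB consensus on either strand, the Bcl2l1 window above, and the other 2 Bcl2l1 windows held none. In the window shown, the match started 242 bases before the start site. Over all 32851 windows the share with a match was 7.25%. The motif TGGAAA, the core bound by NFAT proteins including NFAT5, was found on either strand in 0 of the 14 windows and in 18.6% of all windows. A stretch of bases can belong to both motifs. These counts describe letters in the windows shown and do not bear on binding elsewhere.

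Bcl2l1, which encodes the guardian BCL-XL, was highest in wild-type cells with LPS. With LPS it lay at 9.10, 9.22, 8.48 and 8.50 in KO cells and at 9.56, 10.09, 9.55 and 9.26 in wild-type cells. In unstimulated cells it lay at 8.78, 8.95, 8.93 and 8.56 in KO cells and at 8.47, 9.01, 8.96 and 8.97 in wild-type cells. The 4 wild-type LPS arrays lay above all 12 others, by a narrow margin (9.26 against 9.22 in KO LPS array 2). The KO arrays with LPS spread on both sides of the unstimulated KO arrays. The LPS change was 0.02 ± 0.188 in KO cells (limma adjusted p = 0.97, interval -0.38 to 0.42), and in wild-type cells Bcl2l1 rose 1.70-fold (0.76 ± 0.188; adjusted p = 0.00376).

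With LPS, Bcl2l1 was 1.73-fold lower in KO than in wild-type cells (-0.79 ± 0.188; adjusted p = 0.0252 in limma). The difference in response was -0.75 ± 0.266 (interval -1.31 to -0.18) and was not called (adjusted p = 0.256, and 0.0904 to 0.684 over its alternatives). So the LPS rise was called in 1 genotype, but the responses were not shown to differ. The KO against wild-type call was lost without KO LPS array 3 or 4 or wild-type LPS array 1 or 2 (adjusted p = 0.0541 to 0.114) and in the fit of these 8 arrays alone (adjusted p = 0.0838), with adjusted p = 0.00552 to 0.114 over all its alternatives. Among the arrays with Xist above Kdm5d the difference was larger, at -1.12, but with 1 KO array left in each treatment it was not called (adjusted p = 0.102).

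Bcl2l11, which encodes the BH3-only killer BIM, moved the other way and was lowest in wild-type cells with LPS. With LPS it lay at 9.87, 9.66, 9.86 and 9.90 in KO cells and at 9.25, 8.98, 9.23 and 9.25 in wild-type cells. Without LPS it lay at 10.19, 9.94, 10.10 and 9.96 in KO cells and at 10.04, 9.88, 9.96 and 10.17 in wild-type cells. The 4 wild-type LPS arrays lay below all 12 others, and the KO arrays with LPS lay just under the unstimulated KO arrays without overlap. In KO cells the LPS change was -0.23 ± 0.0956 and was not called (limma adjusted p = 0.103). It was called in 2 of 26 alternatives, with the array number as a block (limma adjusted p = 0.0396) and with a sex term besides the block (0.0324). In wild-type cells Bcl2l11 fell by 0.83 ± 0.0956 (1.78-fold, adjusted p = 1.4e-06).

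With LPS, Bcl2l11 was 1.56-fold higher in KO than in wild-type cells (0.64 ± 0.0956; adjusted p = 0.000774 in limma), and no single array left out ended that call. A sex term together with the array number as a block, a setting chosen after seeing the data, did (0.52, adjusted p = 0.0598), and over its alternatives the adjusted p ran from 0.00017 to 0.0763. The KO response minus the wild-type response was 0.61 ± 0.135 (interval 0.32 to 0.89; adjusted p = 0.0339). This call was lost without KO array 2, 3 or 4, KO LPS array 1, 3 or 4, wild-type array 1, 3 or 4, or wild-type LPS array 2, with adjusted p = 0.0321 to 0.0861 and values of 0.54 to 0.66 over all 16 arrays left out in turn. Among the arrays with Xist above Kdm5d the KO minus wild-type difference with LPS was 0.72 and the difference in response 0.77, neither of them called (adjusted p = 0.0763 and 0.422). Across the alternatives of the difference in response the adjusted p ran from 0.00976 to 0.422.

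**Figure D2:**
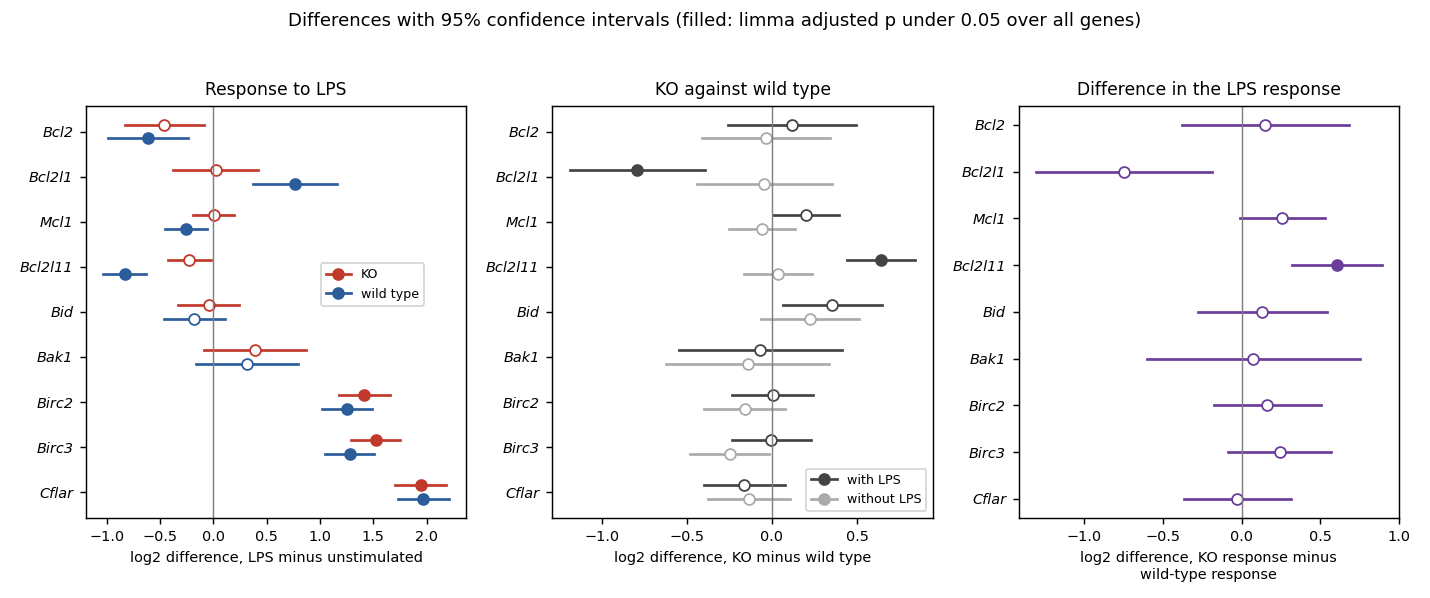
Log2 differences (x axes) of 9 genes with 95% confidence intervals: LPS minus unstimulated in KO (red) and wild type (blue), KO minus wild type with LPS (dark) and without it (light), and the KO response minus the wild-type response (purple). Filled points passed an adjusted p of 0.05. Bcl2l1 at -0.79 and Bcl2l11 at 0.64 are the filled points between genotypes, both with LPS.

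The other guardians, Bcl2 and Mcl1, showed modest falls with LPS in wild-type cells. Bcl2 with LPS lay at 7.88, 7.73, 8.05 and 7.45 in KO cells and at 7.83, 7.64, 7.76 and 7.40 in wild-type cells. Unstimulated, it lay at 8.10, 8.63, 8.31 and 7.90 in KO cells and at 7.84, 8.71, 8.28 and 8.24 in wild-type cells. The KO groups overlapped, and the wild-type groups did not overlap, though their edges almost touched. The change in KO cells was -0.46 ± 0.178 (limma adjusted p = 0.0713) and was called in 7 of 26 alternatives, among them a term for sex (adjusted p = 0.0342) and leaving out KO array 4, KO LPS array 3 or wild-type array 1 or 2 (0.0306 to 0.0466). In wild-type cells Bcl2 fell by 0.61 ± 0.178 (adjusted p = 0.0124), a call lost without wild-type array 2 (adjusted p = 0.0552; 0.00267 to 0.0552 over its alternatives).

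Mcl1, a short-lived guardian, lay at 11.67, 11.39, 11.66 and 11.42 in KO cells with LPS and at 11.33, 11.36, 11.41 and 11.24 in wild-type cells with LPS. In unstimulated cells it lay at 11.45, 11.64, 11.64 and 11.40 in KO cells and at 11.69, 11.58, 11.60 and 11.50 in wild-type cells. The wild-type groups did not overlap, and the KO groups overlapped. The change in KO cells was 0.00 ± 0.0915 (limma adjusted p = 0.994, interval -0.19 to 0.19), and in wild-type cells Mcl1 fell by 0.26 ± 0.0915 (1.20-fold; adjusted p = 0.0395). The wild-type call was lost without wild-type array 1, 2 or 3 or wild-type LPS array 1, 2 or 4 (adjusted p = 0.0633 to 0.108; 0.0183 to 0.108 over all alternatives). The differences in response, 0.15 (interval -0.38 to 0.68) for Bcl2 and 0.26 (-0.01 to 0.53) for Mcl1, were not called (adjusted p = 0.919 and 0.525).

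Bid, which is activated when caspase-8 cuts it, was not called in any comparison of the fit without array numbers. It lay at 7.80, 7.77, 8.02 and 8.16 in KO cells with LPS and at 7.62, 7.15, 7.76 and 7.80 in wild-type cells with LPS, groups that overlap at their edges. Without LPS it lay at 7.98, 7.84, 8.08 and 8.03 in KO cells and at 7.77, 7.50, 7.81 and 7.97 in wild-type cells. With LPS the KO minus wild-type difference was 0.35 ± 0.137 (limma adjusted p = 0.26, interval 0.07 to 0.64). With the array number as a block, which pairs the arrays in this comparison, it was called (adjusted p = 0.028, and 0.028 to 0.754 over its alternatives).

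Bak1, the pore former measured here, was not called in the fit without array numbers either, and its level followed the array number. The arrays numbered 4 stood highest in each group, at 10.84 in KO cells with LPS, 10.97 in wild-type cells with LPS, 10.39 in unstimulated KO cells and 10.73 in unstimulated wild-type cells. The other arrays lay at 10.07 to 10.26, 10.08 to 10.39, 9.76 to 9.83 and 9.77 to 10.01 in the same groups. The LPS change was 0.39 ± 0.228 in KO cells (limma adjusted p = 0.271) and 0.32 ± 0.228 in wild-type cells (adjusted p = 0.333). Without the 4 arrays numbered 4, Bak1 rose by 0.37 in KO cells and by 0.34 in wild-type cells (adjusted p = 0.0137 and 0.0196). Over all its alternatives the adjusted p ran from 0.00148 to 0.642 in KO cells and from 0.0059 to 0.735 in wild-type cells, with a rise called in 3 of 26 in each genotype. Each of the 8 same-number differences was positive, 0.31 to 0.47 in KO cells and 0.25 to 0.38 in wild-type cells.

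Without LPS, none of the 9 genes was called between KO and wild-type cells in limma, where 1% of all genes were (0.14% higher, 0.863% lower). An unadjusted p under 0.05 was found for 1 of the 9, and for 1562 of all 19937 genes. The 1 member was Birc3, at -0.25 ± 0.11 (interval -0.48 to -0.02; adjusted p = 0.589). The median absolute log2 difference of the 9 genes was 0.13, beside 0.09 over all genes. None had groups that did not overlap, which held for 4.33% of all genes. With LPS, 2 of 9 genes were called between KO and wild-type cells, against 3.05% of all genes. Of these, 1 was higher and 1 lower, against 1.8% and 1.26% of all genes. The groups of the same 2 genes, Bcl2l11 and Bcl2l1, did not overlap, which held for 7.73% of all genes. With the array number as a block, Bid was also called with LPS, as higher in KO cells. The block called 4.77% of all genes in this comparison. The LPS comparison in wild-type cells and the genotype comparison with LPS share the wild-type LPS arrays, so for Bcl2l1 and Bcl2l11 they are not separate observations. For Cflar, Birc3 and Birc2 the KO minus wild-type differences with LPS were -0.16 (interval -0.40 to 0.08), 0.00 (-0.24 to 0.23) and 0.00 (-0.23 to 0.24).

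In a wider list of apoptosis genes, 34 of 41 were measured. With LPS, 10 rose and 7 fell in KO cells, where 12% of all genes rose and 12.7% fell. In wild-type cells 10 rose and 8 fell, where 14% of all genes rose and 16.8% fell. In either direction 24.7% of all genes were called in KO cells and 30.8% in wild-type cells. The median log2 change of the wider list was -0.02 in KO cells and 0.11 in wild-type cells. Of 11 death receptor genes, 7 rose and 0 fell in KO cells, and 5 rose and 1 fell in wild-type cells. Traf1, an adaptor that binds the cellular IAP proteins through TRAF2, rose by 3.90 ± 0.151 in KO cells and by 3.14 ± 0.151 in wild-type cells. Fas, a death receptor, rose by 2.37 in KO cells and by 2.37 in wild-type cells. Mlkl, the executor of necroptosis, rose by 2.33 in KO cells and by 1.91 in wild-type cells. Tnfrsf10b, the mouse TRAIL receptor, rose by 1.26 in KO cells and by 1.48 in wild-type cells, and Traf2 by 1.26 in KO cells and by 0.93 in wild-type cells. The highest limma adjusted p among these rises was 2.74e-06, for Traf2 in wild-type cells.

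Of 3 other guardians, 1 rose in KO cells and 2 in wild-type cells, where 12% and 14% of all genes rose and 12.7% and 16.8% fell. Bcl2a1c, of the A1 guardian copies, rose by 2.93 ± 0.244 in KO cells and by 3.64 ± 0.244 in wild-type cells, and its probes may also read its near-identical copies, so this value is uncertain as to the copy. In wild-type cells Bcl2l2 also rose, by 0.34. Of 7 BH3-only and effector genes, Bmf alone was called, and it fell by 0.75 in KO cells and by 1.05 in wild-type cells. Of 5 apoptosome and caspase genes, Cycs (cytochrome c) rose 1.75-fold in KO cells and 2.01-fold in wild-type cells. Casp2 (-1.24 in KO and -1.83 in wild-type cells), Casp6 (-1.03 and -1.44 in the same order) and Casp9 (-0.48 and -0.68) fell in both. Of 8 other IAP genes and antagonists, 1 rose and 3 fell in KO cells, and 2 rose and 3 fell in wild-type cells. Bcl2l2, Bmf, Cycs, Casp6 and Casp9 were named after their values were seen.

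**Figure D3:**
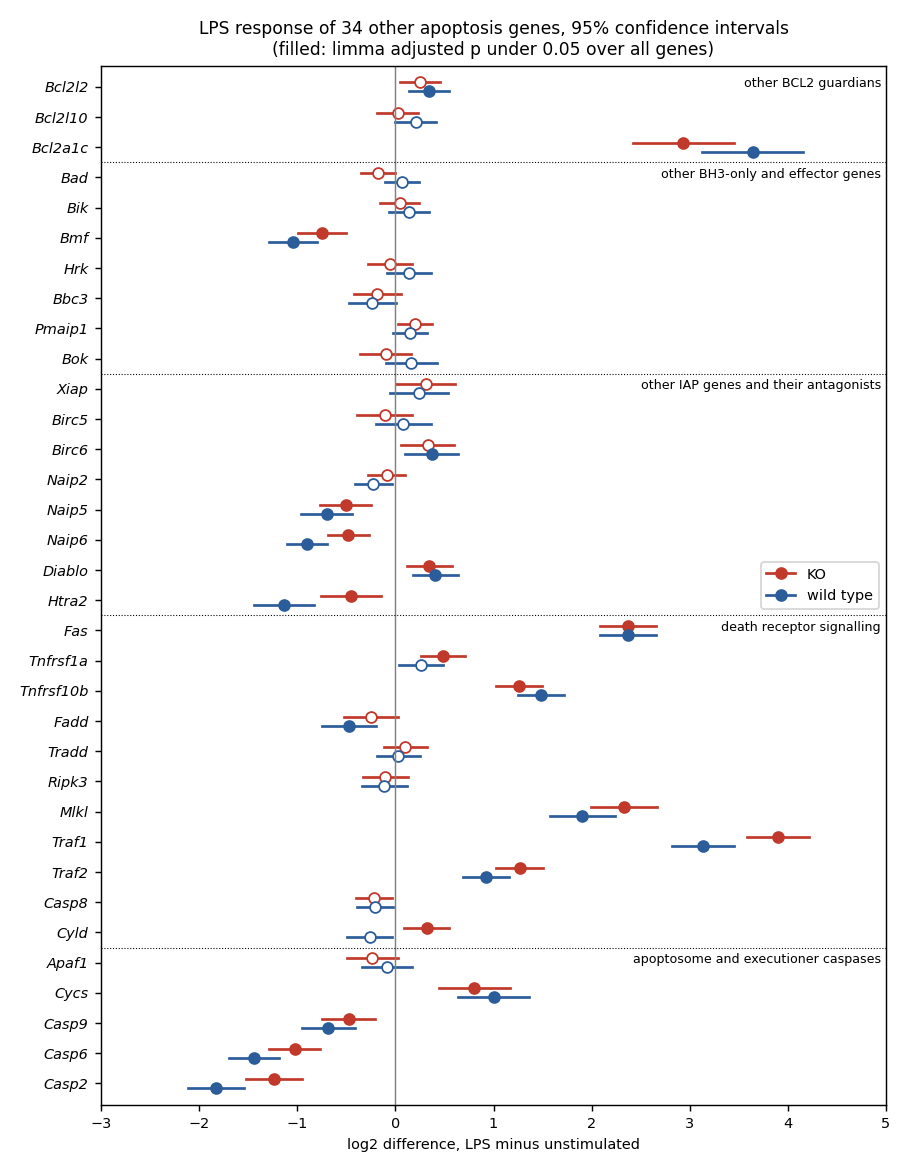
Log2 change with LPS (x axis) of 34 other apoptosis genes (y axis, grouped by role) in KO (red) and wild-type cells (blue), with 95% confidence intervals and filled points for an adjusted p under 0.05. Traf1 at 3.90 and 3.14, Bcl2a1c at 2.93 and 3.64 and Fas at 2.37 in both lie farthest to the right, and Casp2 at -1.24 and -1.83 farthest to the left.

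Between genotypes, Traf1 was the only gene of the wider list called without LPS, 1 of 34 against 1% of all genes. It lay at 6.04, 6.46, 6.27 and 6.11 in unstimulated KO cells and at 8.32, 8.08, 7.83 and 7.62 in unstimulated wild-type cells, groups more than 1 log2 unit apart (-1.74 ± 0.151; limma adjusted p = 2.41e-06). With the array number as a block, Bcl2a1c was also called, which made 2 called genes. With LPS 5 of 34 were called, against 3.05% of all genes. With LPS, Traf1 lay at 10.08, 10.39, 9.98 and 10.01 in KO cells and at 11.26, 11.33, 10.81 and 10.99 in wild-type cells (-0.98 ± 0.151; adjusted p = 0.000946). Htra2 (0.60 ± 0.145), a mitochondrial protease that can antagonise IAP proteins, Naip5 (0.50 ± 0.123) and Naip6 (0.44 ± 0.0981), sensors of bacterial flagellin whose similar sequences may share probe signal, and Cyld (0.46 ± 0.111), which removes ubiquitin chains, were higher in KO cells with LPS (adjusted p = 0.0181 to 0.0324). With LPS, Htra2 fell by 0.46 in KO and 1.14 in wild-type cells, Naip5 by 0.51 and 0.70, and Naip6 by 0.48 and 0.90, all called. Cyld averaged 9.36 with LPS and 9.04 without it in KO cells, and 8.89 and 9.16 in wild-type cells. Of the 5 genes called between genotypes with LPS, Traf1 alone was called with a term for sex (-1.09, adjusted p = 0.00791), and the other 4 had adjusted p = 0.0753 to 0.311. Without KO LPS array 1 or wild-type LPS array 2, Traf1 alone was called (1.98% and 1.54% of all genes). Without KO LPS array 2 or 3 it was called with 1 other gene (2.31% and 2.07% of all genes). Without wild-type LPS array 1 it was called with 2 others (2.35% of all genes). All these shares lay below the 3.05% of the main fit. The difference in response was called for 0 of the 34 genes in limma, against 1.29% of all genes, and 8 had an unadjusted p under 0.05, as did 2044 of all 19937 genes.

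Genes with the most similar profiles over the 16 arrays were found by the root mean square difference between values centred on each gene's mean. Pik3cg, a catalytic subunit of a phosphoinositide kinase, came closest to Birc2 (0.103 log2 units, where Birc2 itself varied by 0.684). Rapgef2 came closest to Cflar (0.12, against 0.991), and Slc31a1, a copper importer, to Birc3 (0.129, against 0.718). Pitpnc1 was nearest to Bcl2l1 (0.153, against 0.432) and Vwa5a to Bcl2l11 (0.135, against 0.364). Tmtc4 was nearest to Bcl2 (0.138, against 0.367) and Zeb2os to Bak1 (0.138, against 0.375). For Bid it was Mpp1 (0.113, against 0.24) and for Mcl1 Tkfc (0.0876, against 0.137), a loose match beside the small variation of Mcl1 itself. Vwa5a averaged 10.64 in KO cells with LPS and 10.09 in wild-type cells with LPS, against 11.02 in unstimulated cells of both genotypes.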

How the data were processed

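Total RNA from 16 samples was hybridised to 1-channel Affymetrix arrays. The deposited values are log2 levels per probe set made with RMA, per the submitters' processing notes, which give no version. RMA normalises all arrays to 1 distribution, so a shift shared by all genes is removed. Array medians ranged from 6.76 to 6.86. Precision is limited by having 4 arrays a group.

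Of 34760 probe sets, 21640 had 1 annotated gene, 1321 had several and were left out, and 11799 were not listed. The brightest probe set stood for each of 19937 genes. Symbols were checked by gene identifier in a RefSeq table of GRCm38.p6, which changed 0. Promoter windows are from RefSeq.

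One limma 3.58.1 fit (lmFit, eBayes; R 4.3.3) held all 16 arrays with a mean per group and 12 residual degrees of freedom. The 5 contrasts were adjusted over all genes by Benjamini-Hochberg. The fit was run on simulated data with independent noise for each array. That simulation held no pairing by array number and no sex difference, so it cannot show how the fit handles these. The members and lists were chosen with earlier results of these data known. The 10 members are always named, and of the wider list up to 6 called genes per contrast with the largest difference, and per member the gene with the nearest profile.

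Array numbers come from the titles. Deviations of same-numbered KO and wild-type arrays from their group means correlated by 0.16 to 0.44 without LPS and 0.19 to 0.52 with LPS. All exceeded 0.1, so the numbers pair the arrays in the genotype comparisons. The main fit, with a mean per group, did not use this pairing, and genotype p-values come from it unless another setting is named. With the array number as a block, Bcl2l1 and Bcl2l11 stayed called between genotypes with LPS, and Bcl2l11 for the difference in response. No 2 arrays held the same values: same-group arrays differed gene by gene with an SD of 0.172 to 0.381. Alternatives were a replicate block, a fit of the compared groups alone, median centring, a filter on genes with every group mean under 6, a variance trend, the mean of a gene's probe sets, a sex term, the arrays with Xist above Kdm5d, leaving out the arrays numbered 4, and leaving out each array.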

Additional observations from a re-analysis of the deposited data

Results flagged for a closer look

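Of 36 sets of 4 arrays checked for a sample far from the others, 4 had one, and chance alone marks about 1 in 20. Bcl2l1 lay at 8.47 in unstimulated wild-type array 1, against 8.96 to 9.01 in the others. Bcl2l11 lay at 9.66 in KO LPS array 2, against 9.86 to 9.90, and at 8.98 in wild-type LPS array 2, against 9.23 to 9.25. Bak1 lay at 10.39 in unstimulated KO array 4, against 9.76 to 9.83. The difference between the genotypes in the response of Bcl2l11 to LPS was called, at 0.61 log2 units (KO minus wild type). The call held in 13 of 25 alternatives, and it was lost for 10 of the 16 arrays left out in turn. Sex and genotype also largely go together in these arrays.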

How the results depend on the processing

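Over the 9 genes and 5 comparisons, 1116 of the recomputed values kept their side of the threshold, 29 lost a call, 16 gained one and 0 called values changed sign. With the replicate block, 6 members were called for LPS in KO cells (Bak1, Bcl2 and Bcl2l11 added), against 3, while calls over all genes went to 28.2%, against 24.7%. In wild-type cells 8 were called (Bak1 added; 34.5% of all genes, against 30.8%). The block's adjusted p for Bak1 was 0.00178 in KO cells and 0.0072 in wild-type cells. In the wider list the block called 2 genes without LPS (1.64% of all genes) and 3 for the difference in response (2.26%), against 1 and 0. Array numbers were not taken to pair the LPS comparisons, since not every same-numbered correlation exceeded 0.1. These correlations ran from -0.06 to 0.56 in KO cells and from 0.05 to 0.43 in wild-type cells. In the same order, 4 and 6 of 8 arrays correlated best with their own number. Among KO arrays, only those numbered 4 had Xist above Kdm5d, with and without LPS, and arrays numbered 4 had the highest Bak1 in every group. The LPS arrays may therefore be paired as well, and the block's calls are given for that reason. The block changed no other member call between genotypes than that of Bid with LPS, where it called 4.77% of all genes, against 3.05%. Between genotypes with LPS, the fit of 8 arrays called 1 member (Bcl2l11; 2.4% of all genes). Using only the arrays with Xist above Kdm5d called 0 members with LPS and 0 for the difference in response, and in the wider list 0 genes with LPS and 9 for LPS in KO cells, against 17. This fit has 10 arrays, and its calls over all genes also dropped, to 0.446% with LPS, 0.0201% for the difference in response and 9.84% for LPS in KO cells. The sex term called 1 wider gene with LPS and 2 without (3.37% and 1.8% of all genes). Sex term and block together, chosen after seeing the data, called 0 members with LPS, 6 for LPS in KO cells, and 1 wider gene with LPS and 3 for the difference in response (0.712%, 28.7% and 2.35% of all genes in the 3 comparisons). Without the 4 arrays numbered 4, 0 members and 1 wider gene (Bcl2a1c) were called for the difference in response, and 2 wider genes without LPS (0.767% and 1.07% of all genes). The causes were not tested.

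With 1 array left out at a time, member calls ranged from 3 to 4 for LPS in KO, 5 to 7 for LPS in wild type, 0 to 0 between genotypes without LPS, 1 to 2 with LPS and 0 to 1 for the difference in response. The share of all genes called ranged, in the same comparisons, from 22.1% to 25.2%, 27.2% to 31.8%, 0.582% to 1.05%, 1.54% to 3.31% and 0.667% to 1.36%. Calls in the wider list ranged, in the same comparisons, from 14 to 18, 17 to 19, 1 to 1, 1 to 5 and 0 to 2. The 2 calls for the difference in response, Casp2 and Htra2, came without KO LPS array 4. Weak signals of dim genes limit small changes here.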
